A study of Rattus norvegicus with 21 samples.

Results

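The genes that cells switch on in answer to interferon were followed in left ventricles of young and aged F-344/Brown Norway rats, a hybrid strain used in aging research. The set was chosen by gene symbol, with earlier results of these data known, and names 37 genes. Of these, 36 had a row among the 26597 genes in each of the deposited tables, and the expression of Xaf1 was not analysed here. Of the 36, 35 had enough reads to be tested in every comparison, and Ifit1, with between 0 and 4 reads per library, was not. Total RNA was sequenced in 21 rats that fell into 6 groups. Females comprised 4 control rats aged 9 months, 4 control rats aged 24 months and 4 rats aged 24 months that received RLX, the peptide hormone relaxin. Males comprised 3 rats in each of the same groups. RLX was given at 400 μg/kg/day and controls received the sodium acetate vehicle, in both cases for 14 days by a mini pump under the skin. Each library came from the frozen left ventricle of 1 rat, a piece of tissue that holds heart muscle together with vessels, fibroblasts, leukocytes and blood, so a lower level can mean fewer cells of a type or less RNA per cell, and these cannot be told apart.

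Interferons are secreted proteins by which infected or stressed cells warn their neighbours. Type I interferons bind the receptor pair Ifnar1 and Ifnar2 and act through a complex that holds Stat2 and Irf9 on a promoter sequence called the interferon-stimulated response element (ISRE), while interferon gamma binds Ifngr1 and Ifngr2 and acts on the gamma-activated site (GAS). The induced genes encode sensors of foreign nucleic acid, transcription factors that carry the response on, proteins that block virus entry, replication or release, and regulators that shut the response down. In the heart the response is best known from viral myocarditis and from leukocytes that enter injured muscle.

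The ISRE and the GAS were looked for in the promoters. No sequence was used to choose the genes, but they were chosen as genes that answer to interferon, which acts through these elements. A high share of matches can follow from that choice and is no test of the set. RefSeq promoter windows of the rat assembly GRCr8, 300 bases long with 250 bases before the start of the gene and 50 after it, were found by symbol for 28 of the 37 genes, Xaf1 among them, and Mx2, Ifit1, Ifit2, Isg15, Oas2, Usp18, Ddx58, Dhx58 and Zbp1 had none. The ISRE core, a pair of GAAA half-sites with 2 bases of any kind between them, searched on both strands, lay in 17 of the 28 windows and in 3.92% of all 33469 promoters. For the GAS, written TTCNNNGAA, the numbers were 7 of 28 and 8.87%. Merging matches that overlap left 19 ISRE runs, of which 12 read on the strand of the gene and 7 on the other, and 14 had their upstream end within 100 bases before the start. The runs shown here, in capitals with 5 flanking bases on each side and read on the strand of the match, belong to members whose values are given below. The number is the distance in bases from the start of the gene to the upstream end of the run.
Bst2, 131 bases: tccagGAAAATGAAACTGAAAggtgg
Oas1a, 41 bases: ctcggGAAATGGAAACTGAAAatctt
Trim21, 18 bases: gagagGAAACTGAAAGTGAAAttaga
Gbp2, 31 bases: acaatGAAAGTGAAActaaa
Gbp5, 56 bases: aaactGAAATTGAAActaca
Irf7, 69 bases: ctcggGAAAATGAAAcctaa
Rsad2, 147 bases: tttctGAAAATGAAAgttga
Parp14, 76 bases: gaaatGAAAGTGAAAgaagt
Ifitm3, 44 bases: ttcagGAAAAGGAAActtct
Ifi44, 26 bases: gaaatGAAACTGAAActcag
Bst2, Oas1a and Trim21 each held a run of 16 bases made of a pair of overlapping matches, and the other runs shown were 10 bases long. The 250 bases before the start are printed for the 3 members with a window that passed the test in female aging, with ISRE and GAS matches in capitals and any match on the other strand shown as it reads on the strand of the gene.
Bst2, chr16:18254968-18255217, minus strand: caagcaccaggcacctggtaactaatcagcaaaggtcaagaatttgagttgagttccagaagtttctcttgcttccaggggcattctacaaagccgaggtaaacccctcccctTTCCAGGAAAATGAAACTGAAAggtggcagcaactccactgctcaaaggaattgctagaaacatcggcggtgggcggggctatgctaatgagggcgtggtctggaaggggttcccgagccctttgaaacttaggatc
Gbp2, chr2:234005477-234005726, plus strand: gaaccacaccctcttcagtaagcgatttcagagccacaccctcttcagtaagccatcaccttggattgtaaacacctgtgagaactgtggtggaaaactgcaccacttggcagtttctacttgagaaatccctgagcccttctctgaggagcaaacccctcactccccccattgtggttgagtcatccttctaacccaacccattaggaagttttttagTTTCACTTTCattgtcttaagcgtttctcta
Mx1, chr11:50294607-50294856, minus strand: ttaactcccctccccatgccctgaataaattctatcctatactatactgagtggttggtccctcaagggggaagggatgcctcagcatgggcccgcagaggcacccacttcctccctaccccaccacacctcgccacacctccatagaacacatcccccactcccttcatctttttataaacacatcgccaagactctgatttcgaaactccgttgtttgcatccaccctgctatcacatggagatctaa
In Bst2 a GAS match overlapped the first ISRE match, Gbp2 held a single ISRE match on the other strand, and Mx1 held neither motif in this window. The GAS match of Irf1, a gene that interferon gamma induces, is shown with its 250 bases for comparison.
Irf1, chr10:38417685-38417934, plus strand: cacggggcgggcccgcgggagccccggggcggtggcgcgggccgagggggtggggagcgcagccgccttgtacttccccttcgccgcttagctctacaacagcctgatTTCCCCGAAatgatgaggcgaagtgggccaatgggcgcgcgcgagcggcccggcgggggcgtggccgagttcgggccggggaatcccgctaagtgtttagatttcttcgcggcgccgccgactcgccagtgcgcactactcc
A match of letters is a description of the reference sequence and no measurement of binding.

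Total counts ran from 11997512 to 19027947 per library. Depth did not overlap between the groups compared in male aging, with 12278848 to 12758653 counts in 9-month males and 13143608 to 19027947 in 24-month control males. Every pair of rats of a group differed by far more than sampling noise (chi-square per degree of freedom from 13.3 to 68.0 across genes). Libraries stood apart for genes of other tissue. Summed hemoglobin and other erythroid markers reached 1434 CPM in 24-month control female rat 6 and 11429 CPM in RLX-treated female rat 4, where the median of each female group was at most 26.6 CPM, and summed atrial muscle markers reached 6648 CPM in 24-month control female rat 5 against medians of at most 855 CPM. Results in females are therefore also given without these 3 libraries, a choice made after seeing the data. CPM here means counts scaled to the library total and by TMM factors, which put the 21 libraries on a common scale. Females and males were loaded on the sequencer at different concentrations, so levels are compared within a sex.

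Levels between genes were compared per length, as RPKM, reads scaled to transcript length and to mapped reads. Averaged over the groups, 33 of the 36 genes reached a mean of at least 1 RPKM and 8 reached 10. Ifi27 stood highest at 282 RPKM, ahead of Ifitm3 at 209 and the virus tether Bst2 at 130.2 RPKM. Irf1 followed at 42.9 RPKM, then Gbp2 at 23.6, Isg15 at 18.5, Irf7 at 17.5 and Ifi44 at 17.1 RPKM. At the other end, the 7 lowest were Ifih1 at 2.39, Isg20 at 2.27, Ddx58 at 1.85, Dhx58 at 1.65, Zbp1 at 0.908, Oas2 at 0.445 and Ifit1 at 0.0442 RPKM. The set thus spanned genes with abundant RNA and genes near the limit of detection in the same tissue.

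**Figure D1:**
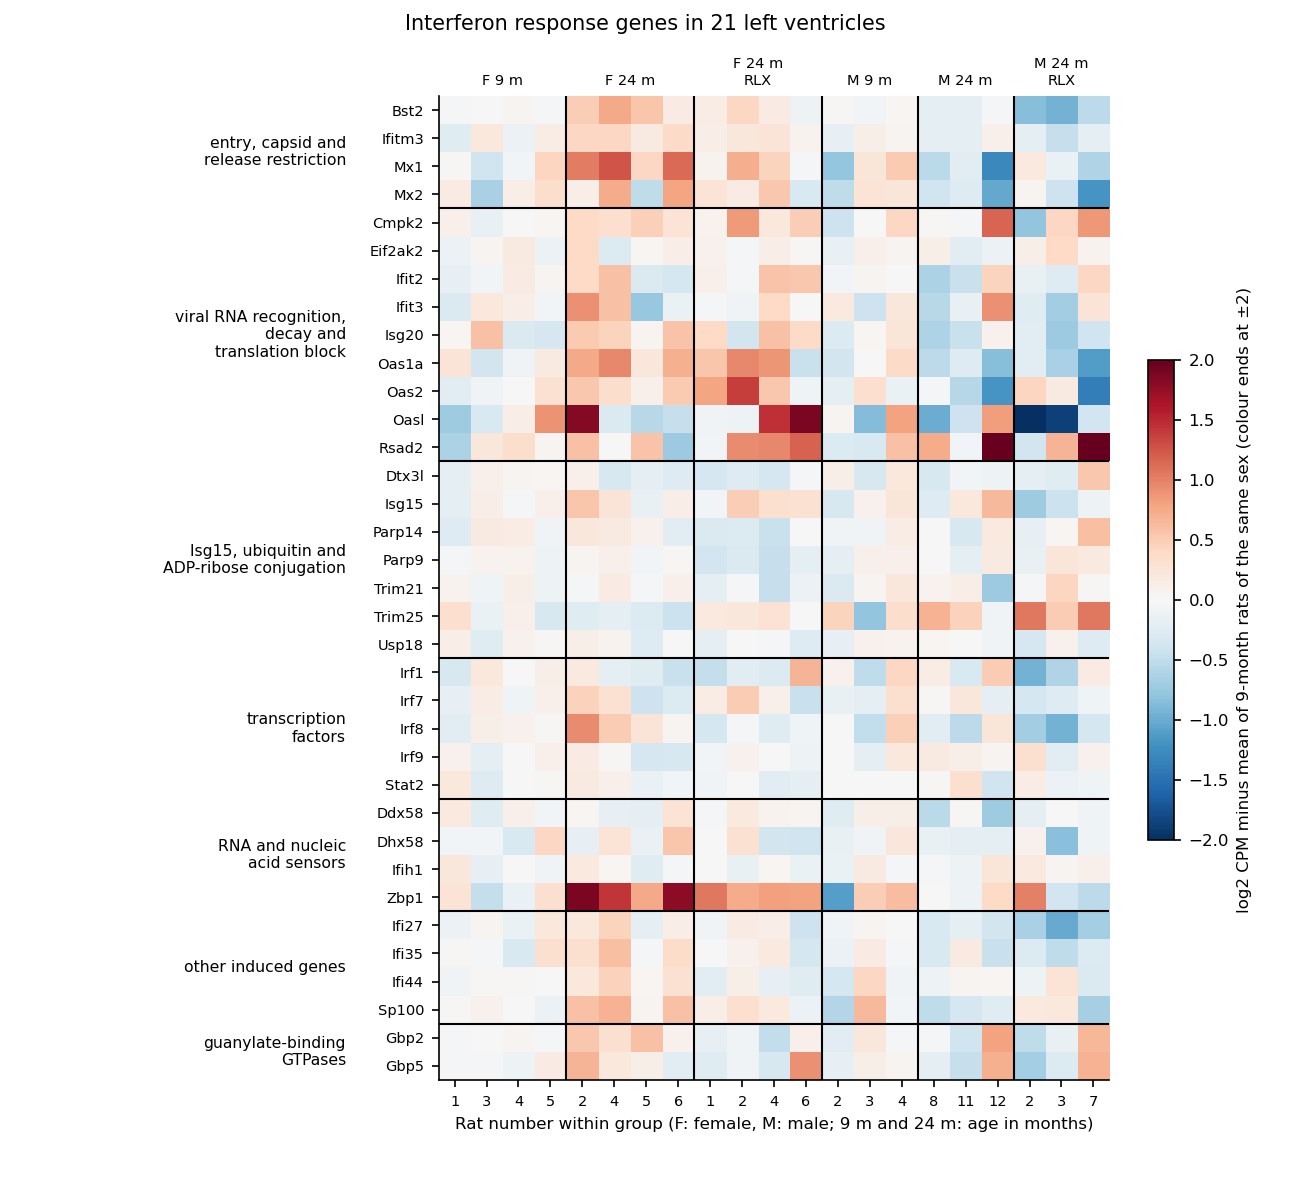
Each column is 1 rat and each row 1 of the 35 tested members, grouped by role; colour gives log2 CPM minus the mean of the 9-month rats of the same sex, and the scale ends at 2 in either direction. Zbp1, Mx1 and Bst2 were above the 9-month mean in all 4 control females aged 24 months, while Oasl and Rsad2 differed between rats of a group.

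Aging was measured first, as 24-month against 9-month controls within each sex. In females 4 members rose with age and none fell. These were the sensor Zbp1, the virus restriction factors Bst2 and Mx1, and the GTPase Gbp2, by factors of 3.10, 1.44, 1.97 and 1.33. The test was edgeR's quasi-likelihood F test with false discovery rates (FDR) by Benjamini-Hochberg over all 12696 genes tested, and a gene passed at an FDR of at most 0.05. The 4 members were 11.4% of the 35, beside 3.47% of all genes tested that passed as higher, 1.88% as lower and 5.35% in either direction. At an unadjusted p under 0.05, 10 members were higher and none lower, that is 28.6% of the members beside 11.6% and 9.64% of all genes. As the members were chosen with earlier results of these data known, these shares describe the list and test nothing. The median log2 fold change of the members was 0.23, with 30 of 35 above 0 (49.9% of all genes), beside -0.0005 over all genes. Of the 4, Zbp1 and Mx1 also met a rule built on the thresholds of the study for a differentially expressed gene, more than 1.5-fold in either direction and an RPKM no lower than 1, read here as the average of at least one of the groups (2 members, beside 2.29% of all genes higher and 0.48% lower). Zbp1 passed that floor only through the aged controls, at 1.303 RPKM against 0.422 RPKM in young females. The groups did not overlap in 5 members, all higher with age (Zbp1, Bst2, Gbp2, Cmpk2 and Ifi44), beside 7.03% of all genes higher and 7.10% lower.

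The count in females rested on few rats. It was between 0 and 5 when each library was left out in turn and was 0 without 9-month control rat 1 or rat 4, while the number of all genes that passed moved from 679 to between 121 and 617. Without the libraries high in erythroid or atrial genes 6 members passed, namely Bst2, Mx1, Zbp1, Sp100, Irf8 and Ifit3, and the median rose to 0.40. Sp100, a protein of nuclear bodies, Irf8, a factor of myeloid cells, and Ifit3, an RNA-binding protein, were then at log2 fold changes of 0.67, 0.76 and 0.77 (FDR 0.0301, 0.0414 and 0.0423), and Gbp2 no longer passed (FDR 0.0585). Of the aged controls that fit kept only rats 2 and 4, which had the highest value of the group in 18 and 11 of the 35 members. Rats 5 and 6, left out, had the lowest in 21 and 10. Rats 2 and 4 were also the most alike of all pairs within a group (chi-square per degree of freedom 13.3). The larger count and median of that fit therefore rest on those rats. With all libraries kept, DESeq2 and edgeR's exact test called 6 members each. These were Zbp1, Bst2, Mx1 and Gbp2 with Sp100 (adjusted p of 0.0204 and 0.0258) and Oas1a (0.0324 and 0.0337). By limma voom the first 4 passed. In the same female comparison 8 of 10 macrophage markers and 6 of 10 T cell markers rose, with values given below, and their part in the result was not tested.

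In males no member passed in either direction, and none reached an unadjusted p under 0.05. DESeq2, edgeR's exact test and limma voom also called 0 members each in male aging. Among the 12220 genes tested 0 passed, and 2.82% were higher and 5.73% lower at an unadjusted p under 0.05. The median of the members was -0.11, with 10 of 35 above 0 (48.3% of all genes). In 2 members, Ifi27 and Dhx58, the groups did not overlap and both were lower in 24-month rats, beside 6.78% of all genes lower and 7.49% higher.

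The difference between the sexes in aging was tested as an interaction, the female log2 fold change minus the male one, over 13090 genes. Bst2 passed, with a difference of 0.66 (SE 0.17, FDR 0.0475), and it was the single member to do so by the quasi-likelihood test, beside 1.84% of all genes that passed as higher in females and 1.18% as lower. Mx1 at 1.69 (SE 0.44, FDR 0.0517) and Oas1a at 1.26 (SE 0.33, FDR 0.0517) just missed the threshold, followed by Zbp1 at 1.73 (SE 0.57, FDR 0.102). At an unadjusted p under 0.05 the difference was above 0 in 8 members and below 0 in none, beside 10.9% and 9.04% of all genes. DESeq2 and limma voom called 3 members each, Bst2 (adjusted p of 0.00845 and 0.0154), Mx1 (0.00568 and 0.0413) and Oas1a (0.0139 and 0.032), and with no filter on low counts the quasi-likelihood test called 0. The median difference was 0.20. Bst2 kept its call without 24-month control female rat 6, 24-month control male rat 12 or 9-month control male rat 2 (FDR 0.0349, 0.0437 and 0.0469), and lost it without any one of the other 11 libraries (FDR from 0.0533 to 0.126). The number of members that passed ranged from 0 to 5 and was highest without 9-month control male rat 2, the rat with the lowest value of its group in 24 of the 35 members.

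**Figure D2:**
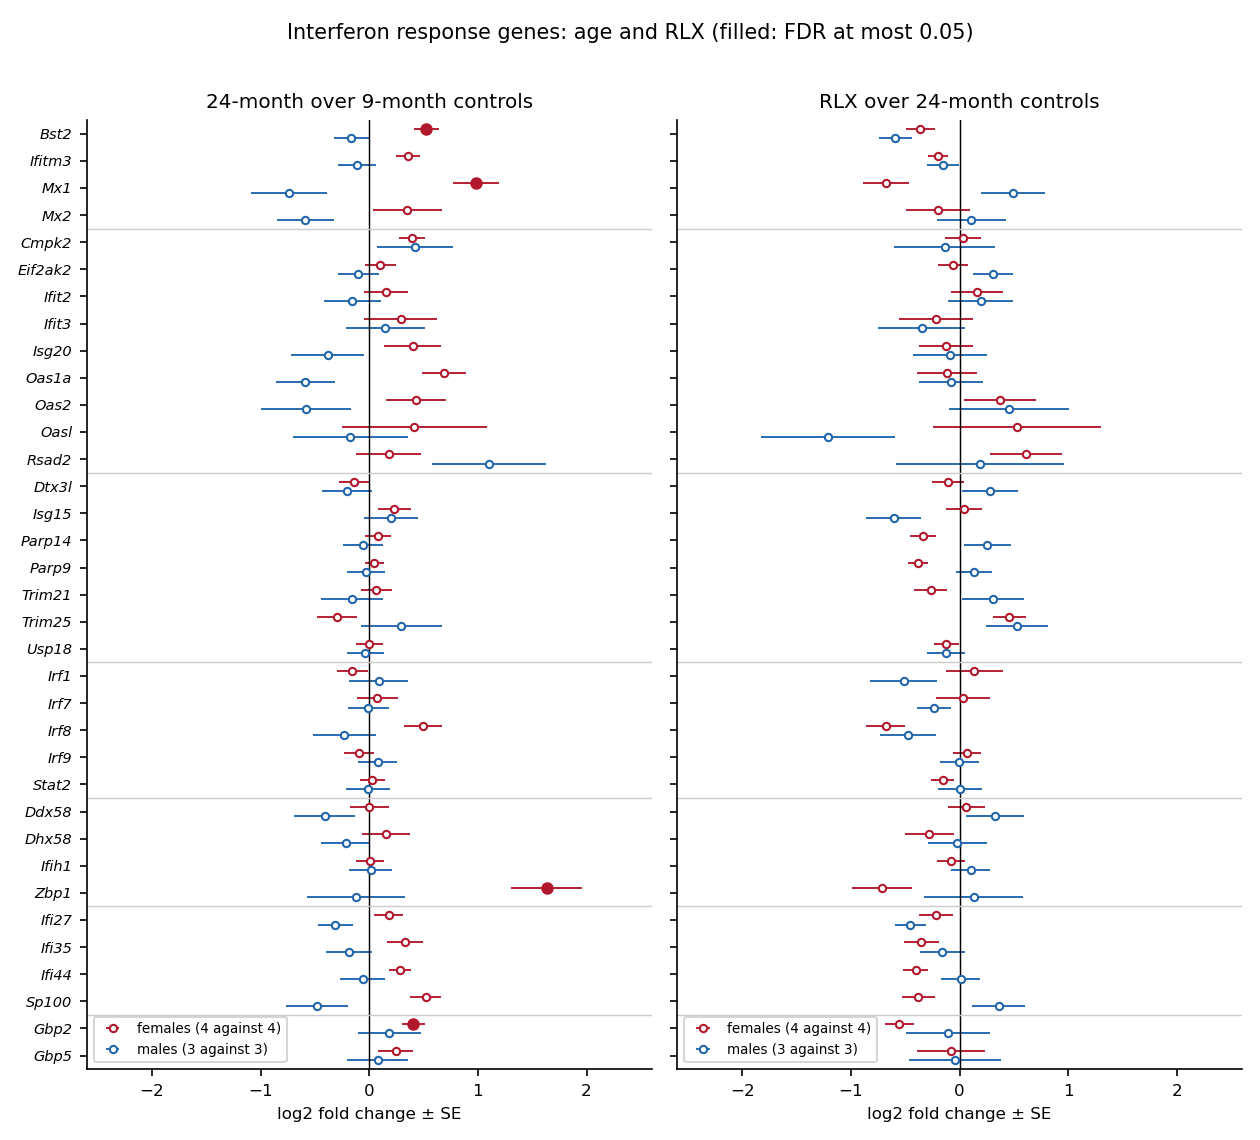
Log2 fold changes with their standard errors (bars) for the 35 tested members, females in red and males in blue; the left panel shows 24-month over 9-month controls and the right panel RLX-treated over control 24-month rats, and filled points passed at an FDR of at most 0.05. Zbp1, Mx1, Bst2 and Gbp2 in female aging are the only filled points.

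RLX was then compared with control in rats of 24 months. In females no member passed in either direction, and among all 12591 genes none did. At an unadjusted p under 0.05, 10 members were lower with RLX and 1 was higher, that is 28.6% and 2.86% of the members beside 7.81% and 6.27% of all genes. The 10 were Parp9, Gbp2, Irf8, Ifi44, Mx1, Parp14, Bst2, Zbp1, Sp100 and Ifi35, and the 1 was the ubiquitin ligase Trim25. The median log2 fold change was -0.13, with 11 of 35 above 0 (48.9% of all genes), beside -0.0066 over all genes. Groups did not overlap in Parp9 and Irf8, lower with RLX, and in Trim25, higher (beside 3.70% and 4.30% of all genes). DESeq2 called 3 members lower, Parp9, Gbp2 and Irf8 (adjusted p of 0.0182, 0.02 and 0.0378), edgeR's exact test called Gbp2 (0.0334) and limma voom none. Without the libraries high in erythroid or atrial genes 1 member passed, Ifit3, at a log2 fold change of -0.82 (FDR 0.0450), and the median was -0.28. Of the aged controls that fit kept only rats 2 and 4, which were the highest of their group in Ifit3. Marker sums moved in the same comparison, since summed ventricular cardiomyocyte markers were higher and summed fibroblast and T cell markers lower with RLX without overlap, with values given below, and their part in the result was not tested.

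With RLX in males no member passed, and 0 of 12232 genes did. At an unadjusted p under 0.05, 3 members were lower and 0 higher, or 8.57% of the members beside 7.55% and 4.41% of all genes. The 3 were Bst2 at -0.59 (SE 0.15, FDR 0.283), Ifi27 at -0.45 (SE 0.14, FDR 0.312) and Isg15 at -0.61 (SE 0.25, FDR 0.399), and Oasl came next at -1.21 (SE 0.62, FDR 0.487). Bst2 and Ifi27 were lower with RLX without overlap, 2 members beside 12.5% of all genes lower and 7.38% higher. DESeq2 and limma voom called Bst2 lower (adjusted p of 0.0399 and 0.0464) and edgeR's exact test called 0 members. The median of the members was near 0 at -0.0035 and moved to 0.15 without 24-month control male rat 12. Summed ventricular cardiomyocyte markers were lower and summed T cell markers higher with RLX in males, each without overlap, and their part was not tested. For RLX the interaction between the sexes passed in 0 members and 0 of 13017 genes. The smallest FDR among members was that of Mx1, with a female minus male difference of -1.14 (SE 0.38, FDR 0.201), followed by Parp9 at -0.49 (SE 0.17, FDR 0.214), Sp100 at -0.71 (SE 0.29, FDR 0.277) and Parp14 at -0.57 (SE 0.25, FDR 0.313). At an unadjusted p under 0.05 this difference was below 0 in 4 members and above 0 in 1, beside 5.45% and 8.70% of all genes, and DESeq2 and limma voom called 0 members.

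RLX-treated rats of 24 months were also set against the 9-month controls, a comparison in which age and treatment differ together. No member passed in females, where 1 of 12570 genes did (0.00796%). Higher at an unadjusted p under 0.05 were 5 members and lower 1, beside 5.54% and 5.87% of all genes, and 20 of 35 were above 0 (51.1% of all genes). Zbp1 at 0.92 (SE 0.27, FDR 0.277), Rsad2 at 0.79 (SE 0.28, FDR 0.348) and Cmpk2 at 0.43 (SE 0.16, FDR 0.353) were among the 5, and Parp9 was the 1 at -0.33 (SE 0.09, FDR 0.234). DESeq2, edgeR's exact test and limma voom called 0 members. In males no member passed and 0 of 12285 genes did. Lower at an unadjusted p under 0.05 were 4 members and higher 1, beside 8.97% and 7.07% of all genes. Ifi27 was at -0.77 (SE 0.17, FDR 0.140), Bst2 at -0.76 (SE 0.17, FDR 0.140), Irf8 at -0.70 (SE 0.28, FDR 0.259) and Oasl at -1.38 (SE 0.54, FDR 0.267), and DESeq2, edgeR's exact test and limma voom called 2, 2 and 1 members lower. The 2 were Ifi27 and Bst2. In females the groups did not overlap in 1 member higher and 1 lower, beside 2.89% and 3.74% of all genes. In males this held for 1 member higher and 4 lower, beside 11.5% and 11.2% of all genes. The comparisons of a sex share rats, so their values stand side by side and are no independent evidence of one another.

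The values in every rat follow by role, with rats in the order of their numbers, which are 1, 3, 4 and 5 for 9-month females, 2, 4, 5 and 6 for 24-month females and 1, 2, 4 and 6 for RLX-treated females. In males they are 2, 3 and 4 at 9 months, 8, 11 and 12 at 24 months and 2, 3 and 7 with RLX. Positions are those of the deposited tables, and which build they refer to is not stated in the sources used here.

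Among the sensors, Zbp1 (chromosome 3, 177340451 to 177350801) binds left-handed nucleic acid and can start inflammatory cell death. In females it was at 0.926, 0.496, 0.663 and 0.955 CPM at 9 months, 3.08, 2.21, 1.35 and 2.88 CPM at 24 months and 1.68, 1.33, 1.401 and 1.39 CPM with RLX. Each aged control was above each young rat, and the RLX-treated rats lay between the young rats and 3 of the 4 aged controls. The mean rose from 0.7602 ± 0.2196 (SD, n = 4) to 2.38 ± 0.784 (SD, n = 4) CPM, a log2 fold change of 1.63 (SE 0.33, FDR 0.0208). The call was lost without 24-month rat 6, 9-month rat 1 or 9-month rat 4 (FDR 0.0604, 0.0549 and 0.0772). In males it was at 0.762, 2.58 and 2.81 CPM at 9 months, 1.77, 1.67 and 2.41 CPM at 24 months and 3.74, 1.35 and 1.202 CPM with RLX, so that each group overlapped the others. These are low levels, from 8 to 46 reads per library. The RNA helicases Ifih1, Ddx58 and Dhx58, which sense viral RNA in the cytosol, ranged over all 21 rats from 8.88 to 12.6, 2.598 to 4.74 and 2.95 to 6.296 CPM, and none of them passed in any comparison.

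Of the transcription factors, Stat2 and Irf9 are the partners that give the type I complex its target sequence. Stat2 was at 24.1, 17.5, 21.05 and 21.3 CPM in young females, 23.5, 22.5, 18.9 and 19.96 CPM in aged controls and 19.9, 21.05, 17.9 and 18.3 CPM with RLX. Male values of Stat2 were 20.9, 21.2 and 20.8 CPM, 21.2, 26.3 and 15.8 CPM and 23.2, 19.3 and 19.8 CPM in the same order. Irf9 in females was at 15.4, 12.7, 14.3 and 15.5 CPM, 16.2, 14.7, 11.4 and 11.6 CPM and 13.9, 15.3, 14.3 and 13.4 CPM. In both genes all 3 female groups overlapped. Irf9 in males was at 15.4, 13.5 and 18 CPM, 17.6, 16.8 and 16.1 CPM and 19.4, 13.4 and 16.5 CPM, again with overlap between all groups. Irf7, which drives further interferon production, was at 32.3, 40.4, 33.96 and 38.9 CPM in young females, 49.9, 44.8, 27.1 and 30.1 CPM in aged controls and 40.1, 51.8, 38.9 and 26.6 CPM with RLX. Aged control rats 2 and 4 were above and rats 5 and 6 below all young females. In males Irf7 was at 38.9, 38.01 and 53.6 CPM, 43.6, 50.4 and 38.01 CPM and 33.6, 35.8 and 40.3 CPM.

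Irf1, the factor induced by interferon gamma, had 1 high rat in several groups. Its female values were 69.8, 101, 86.3 and 94.9 CPM at 9 months, 99.5, 76, 73.6 and 63.8 CPM at 24 months and 62.4, 74.3, 71.9 and 139 CPM with RLX, where rat 6 was the highest of all females. The male values were 129, 85.7 and 162 CPM, 135, 98.4 and 174 CPM and 62.8, 80.5 and 137 CPM, with the highest level in 24-month control rat 12. None of these 4 factors passed in any comparison or interaction. Irf8, which myeloid cells need, was at 8.93, 11.3, 11.1 and 10.7 CPM in young females, 20.4, 14.9, 12.5 and 10.9 CPM in aged controls and 8.19, 10.3, 8.81 and 9.87 CPM with RLX. Each RLX-treated female lay below each aged control, with a log2 fold change of -0.68 (SE 0.18, FDR 0.155) that did not pass. Irf8 in males was at 10.5, 7.396 and 14.5 CPM, 8.87, 7.18 and 12.3 CPM and 6.38, 5.31 and 8.11 CPM, with overlap between neighbouring groups.

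Among the genes that restrict virus entry and release, Bst2 (chromosome 16, 19800348 to 19803919) encodes the tether that holds budding virus at the cell surface. In females it was at 95.4, 96.4, 101 and 96.02 CPM at 9 months, 138, 165, 143 and 109.5 CPM at 24 months and 108, 130.0, 109 and 90.7 CPM with RLX. The young rats lay between 95.4 and 101 CPM, and every aged control exceeded them. The mean rose from 97.3 ± 2.72 (SD, n = 4) to 139 ± 22.7 (SD, n = 4) CPM, a log2 fold change of 0.52 (SE 0.11, FDR 0.0264), and the call was lost without 9-month rat 1 or rat 4 (FDR 0.0890 and 0.0772). RLX-treated females averaged 109 ± 16.1 (SD, n = 4) CPM and overlapped both control groups. In males Bst2 was at 149, 142 and 152 CPM at 9 months, 130.2, 129 and 143 CPM at 24 months and 82.3, 76.8 and 103 CPM with RLX. All 3 RLX-treated males were below all control males of either age, although the difference to the aged controls passed only by DESeq2 and limma voom. Lower without overlap were 12.5% of all genes against the aged controls and 11.2% against the young males.

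Mx1 (chromosome 11, 41398738 to 41420543) and its neighbour Mx2 encode dynamin-like GTPases that trap viral capsids. Mx1 in females was at 6.698, 4.96, 6.33 and 8.97 CPM, 13.5, 15.9, 8.83 and 14.6 CPM and 6.91, 11.03, 9.07 and 6.504 CPM in young, aged and RLX-treated rats. Aged control rats 2, 4 and 6 were above all young females and rat 5 was not. Mean levels rose from 6.74 ± 1.66 (SD, n = 4) to 13.2 ± 3.09 (SD, n = 4) CPM with age, a log2 fold change of 0.98 (SE 0.21, FDR 0.0270), and stood at 8.38 ± 2.097 (SD, n = 4) CPM with RLX. Without 24-month rat 2, 4 or 6 the FDR was 0.0532, 0.0598 or 0.0730, and without 9-month rat 1 or 4 it was 0.0905 or 0.0947. In males the values were 8.21, 16.7 and 20.2 CPM at 9 months, 9.66, 12.03 and 5.68 CPM at 24 months and 16.1, 12.8 and 9.19 CPM with RLX. The male log2 fold change with age was -0.74 (SE 0.35, FDR 0.600), in the other direction and not past the threshold, and 9-month male rat 2 lay under all aged controls but rat 12. Mx2 was at 10.5, 5.89, 10.2 and 11.9 CPM, 10.3, 15.7, 6.51 and 16.3 CPM and 11.3, 10.5, 13.5 and 7.53 CPM in females. Male Mx2 values were 11.4, 19.7 and 19.2 CPM, 12.3, 13.6 and 7.99 CPM and 16.8, 12.1 and 7.15 CPM, a log2 fold change with age of -0.59 (SE 0.27, FDR 0.585). Mx2 overlapped between neighbouring groups in both sexes. Ifitm3, which keeps virus from fusing in endosomes, ranged from 98.2 to 208 CPM over the 21 rats and did not pass in any comparison, with a log2 fold change of 0.36 (SE 0.11, FDR 0.0896) in female aging.

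**Figure D3:**
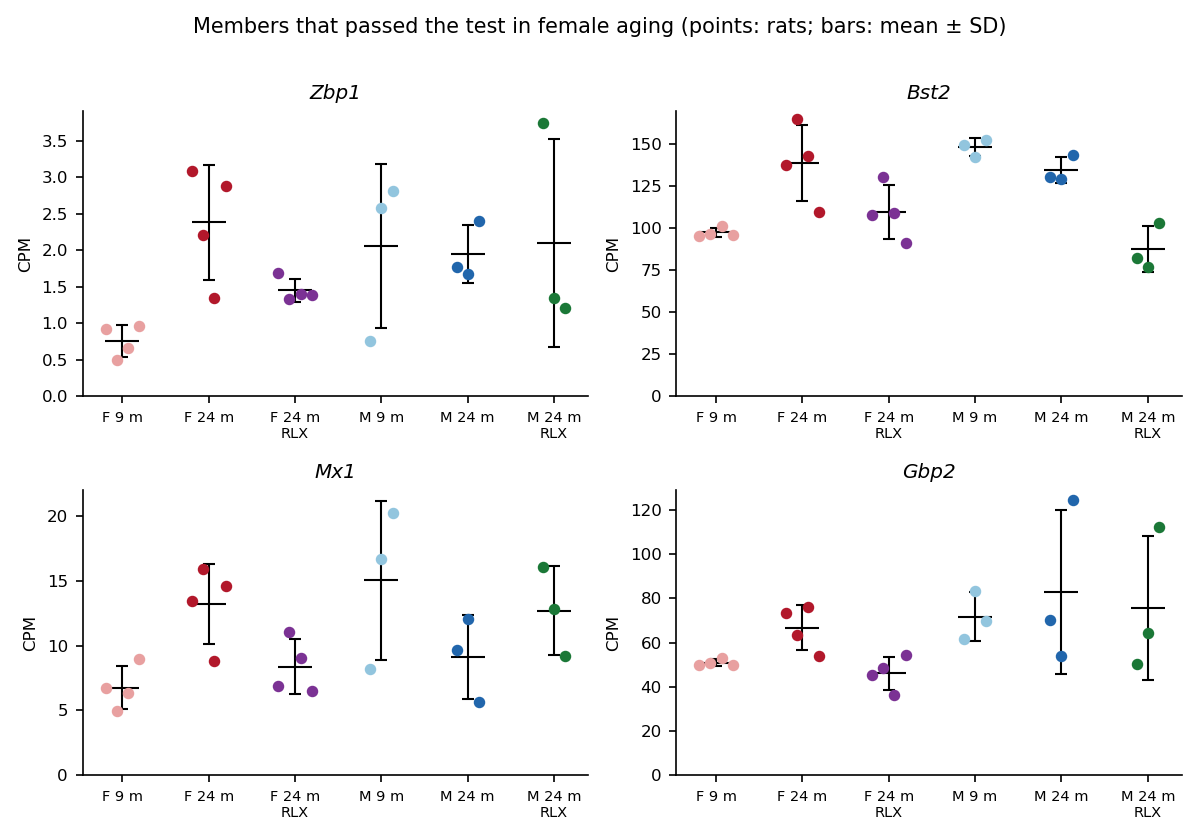
CPM of Zbp1, Bst2, Mx1 and Gbp2 in each rat (points), with the mean and SD of each group (bars); F and M are females and males, 9 m and 24 m the age in months. Aged control females lie above young females in Zbp1, Bst2 and Gbp2 without overlap. Among males, Bst2 is lowest in the 3 RLX-treated rats, from 76.8 to 103 CPM.

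Of the genes that act on viral RNA, Oas1a makes the short oligoadenylates that switch on RNase L. It belongs to a cluster of near-identical copies in rodents, so reads may have been shared among them and its values are uncertain. In females Oas1a was at 4.36, 2.79, 3.44 and 4.14 CPM, 6.23, 7.19, 4.25 and 6.01 CPM and 5.402, 7.199, 6.81 and 2.63 CPM in young, aged and RLX-treated rats. The log2 fold change with age was 0.69 (SE 0.20, FDR 0.0693), which passed by DESeq2 and edgeR's exact test, and 24-month rat 5 fell among the young females. In males it was at 5.16, 6.62 and 8.74 CPM, 4.601, 5.57 and 3.66 CPM and 5.78, 4.22 and 3.005 CPM, with a log2 fold change with age of -0.59 (SE 0.27, FDR 0.586). Oas2 was low, from 0.481 to 2.27 CPM over all rats. Ifit1 was close to absent, and Ifit2 and Ifit3, which lie beside it on chromosome 1 and encode proteins that bind viral RNA, ranged from 19.03 to 47.1 and 8.45 to 40.9 CPM. Ifit3, which passed in females without the libraries high in erythroid or atrial genes, was at 11.7, 16.7, 15.9 and 13.8 CPM, 27.3, 21.6, 8.45 and 13.1 CPM and 13.9, 13.8, 19.1 and 14.3 CPM in young, aged and RLX-treated females. Aged control rats 2 and 4 were above all other females and rat 5, high in atrial genes, was the lowest. In males Ifit3 was at 24.6, 16.2 and 25.1 CPM, 14.6, 19.3 and 40.9 CPM and 18.2, 13.2 and 25.7 CPM, with 24-month rat 12 the highest.

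Oasl, an oligoadenylate synthetase-like gene, and Rsad2, which makes a nucleotide that stops viral polymerases, differed most between rats of the same group, with pooled SDs of 0.94 and 0.84 in log2 CPM. Oasl in females was at 2.396, 3.22, 4.403 and 7.59 CPM, 14.7, 3.25, 2.69 and 2.88 CPM and 3.83, 3.76, 11.3 and 15.2 CPM in young, aged and RLX-treated rats. High rats occurred in the aged controls (rat 2) and with RLX (rats 4 and 6). In males Oasl was at 16.6, 8.77 and 28.2 CPM, 7.95, 12.03 and 28.9 CPM and 3.66, 4.301 and 12.3 CPM. Male groups overlapped in it, and the log2 fold changes of -1.21 (SE 0.62, FDR 0.487) with RLX and -1.38 (SE 0.54, FDR 0.267) against young rats did not pass. Rsad2 was at 3.49, 6.45, 6.996 and 5.68 CPM in young females, 8.31, 5.46, 8.23 and 3.25 CPM in aged controls and 5.29, 10.6, 10.8 and 12.5 CPM with RLX. Its male values were 4.65, 4.56 and 8.52 CPM, 9.53, 5.46 and 24.4 CPM and 4.34, 9.19 and 29.5 CPM. The male mean with age therefore rested on rat 12, and the log2 fold change of 1.10 (SE 0.52, FDR 0.614) did not pass. Cmpk2, a mitochondrial nucleotide kinase that lies next to Rsad2 on chromosome 6, was at 7.24, 6.08, 6.82 and 6.901 CPM, 8.98, 8.58, 9.42 and 8.199 CPM and 7.09, 12.3, 7.81 and 9.501 CPM in young, aged and RLX-treated females. Aged control females were all above the young ones, with a log2 fold change of 0.39 (SE 0.12, FDR 0.0739) that did not pass. Male Cmpk2 was at 6.09, 8.17 and 10.96 CPM, 8.28, 8.02 and 18.5 CPM and 4.68, 10.9 and 14.96 CPM, with 24-month rat 12 the highest. The exonuclease Isg20 and the kinase Eif2ak2, which halts translation, ranged from 1.25 to 2.59 and 11.1 to 20.1 CPM and did not pass.

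Within the conjugation group, Isg15 is a ubiquitin-like protein that is joined to other proteins and Usp18 takes it off again. Isg15 was at 8.82, 11.2, 9.89 and 10.9 CPM, 15.02, 12.2, 9.15 and 11.2 CPM and 9.82, 14.4, 12.7 and 12.6 CPM in young, aged and RLX-treated females. In males it was at 13.96, 18.4 and 20.5 CPM, 14.5, 20.1 and 27.4 CPM and 10.6, 12.9 and 16.2 CPM. The female groups overlapped, and in males 1 RLX-treated rat lay within the range of the aged controls. Parp9 is an ADP-ribosyltransferase that works with its neighbour, the ubiquitin ligase Dtx3l, and varied least of all members between rats of a group (pooled SD 0.15). It was at 33.4, 36.2, 36.01 and 31.8 CPM in young females, 35.7, 36.7, 33.2 and 34.9 CPM in aged controls and 26.3, 28.01, 24.8 and 29.8 CPM with RLX. All RLX-treated females were below all other females, by a log2 fold change of -0.39 (SE 0.09, FDR 0.115) against the aged controls, which did not pass. Males had 32.3, 39.6 and 39.6 CPM, 36.9, 32.8 and 41.8 CPM and 33.3, 44.03 and 42.2 CPM of Parp9, with overlap between all groups. Parp14, on the same stretch of chromosome 11, was at 37.7, 51.3, 49.8 and 42.8 CPM, 52.5, 51.2, 47.8 and 38.5 CPM and 36.9, 37.3, 33.02 and 44.7 CPM in the 3 female groups. Its male values were 43.3, 43.4 and 50.8 CPM, 45.5, 36.6 and 52.3 CPM and 40.98, 47.1 and 69.1 CPM. RLX-treated male rat 7 was the highest of all rats in Parp14. Usp18, Dtx3l, Trim21 and Trim25 ranged from 13.3 to 20.6, 5.59 to 10.3, 2.98 to 6.83 and 1.29 to 5.17 CPM, and none passed in any comparison. Trim25, a ligase that activates the RNA sensor encoded by Ddx58, was the member with a log2 fold change above 0 at an unadjusted p under 0.05 with RLX in females, at 0.46 (SE 0.15, FDR 0.233).

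The guanylate-binding GTPases attack the membranes of vacuoles that hold microbes. Gbp2 (chromosome 2, 266805234 to 266821133) in females was at 49.8, 50.8, 53.01 and 49.7 CPM at 9 months, 73.6, 63.3, 76.2 and 53.9 CPM at 24 months and 45.3, 48.4, 36.2 and 54.2 CPM with RLX. Each aged control was above each young rat, although rat 6 by less than 1 CPM. The mean rose from 50.8 ± 1.55 (SD, n = 4) to 66.7 ± 10.2 (SD, n = 4) CPM, a log2 fold change of 0.41 (SE 0.10, FDR 0.0456). With RLX the mean was 46.03 ± 7.55 (SD, n = 4) CPM, a log2 fold change of -0.55 (SE 0.13, FDR 0.124) against the aged controls. The age call was kept only without 24-month rat 6 (FDR 0.0272), and without each of the other 7 libraries the FDR was between 0.0649 and 0.127. Gbp2 in males was at 61.5, 83.5 and 69.8 CPM, 70.1, 53.9 and 125 CPM and 50.1, 64.4 and 112 CPM. Gbp5, next to Gbp2 in the tables, ranged from 14.2 to 52.1 CPM.

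Among the other induced genes, Ifi27 was the most abundant member. Its female values were 271, 306, 268 and 339.9 CPM, 339.7, 399.7, 259.7 and 324 CPM and 280.4, 329.8, 323 and 222 CPM in young, aged and RLX-treated rats. In males it was at 303, 329 and 319.6 CPM, 258, 277 and 247 CPM and 203, 158 and 198 CPM. The male groups did not overlap, while the female groups did. Each aged control male lay below each young male and each RLX-treated male below each aged control. Of all genes 6.78% were lower without overlap in male aging, 12.5% with RLX and 11.2% in RLX-treated against young males. Against the young males the log2 fold change of Ifi27 with RLX was -0.77 (SE 0.17, FDR 0.140), which passed by DESeq2 and edgeR's exact test and not by the quasi-likelihood test. Ifi44 was at 27.8, 29.6, 29.7 and 29.5 CPM in young females, 33.9, 40.2, 30.1 and 35.99 CPM in aged controls and 24.9, 31.8, 26.1 and 24.6 CPM with RLX. Of the RLX-treated females 3 of 4 were below all other females, with a log2 fold change of -0.40 (SE 0.12, FDR 0.181). The male values of Ifi44 were 27.9, 47.2 and 33.9 CPM, 33, 36.9 and 36.4 CPM and 32.99, 42.8 and 28.9 CPM. Sp100 was at 13.6, 14.3, 13.4 and 12.4 CPM, 20.2, 21.8, 13.9 and 20.2 CPM and 14.6, 16.9, 15.3 and 12.3 CPM in the female groups. Aged control rat 5 alone lay within the range of the young females, and the log2 fold change with age was 0.52 (SE 0.14, FDR 0.0537), which passed by DESeq2 and edgeR's exact test. Male Sp100 values were 12.7, 30.2 and 18.4 CPM, 13.4, 15.2 and 16.2 CPM and 22.02, 22.3 and 12.1 CPM. Ifi35 ranged from 7.67 to 16.1 CPM and did not pass.

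Rats of a group did not differ in 1 gene at a time. In aged control females rat 2 had the highest value of its group in 18 of the 35 members and rat 5 the lowest in 21. Among young males rat 4 was highest in 19 and rat 2 lowest in 24. In aged control males rat 12 was highest in 18 and lowest in 13, being high in Irf1, Gbp2, Gbp5, Oasl, Rsad2, Ifit2, Ifit3 and Cmpk2 and low in Mx1, Mx2, Oas1a and Oas2. RLX-treated male rat 7 was likewise the highest of its group in Irf1, Gbp2, Gbp5, Oasl, Rsad2, Ifit2, Ifit3 and Cmpk2 and the lowest in Mx1, Mx2, Oas1a and Oas2. In RLX-treated female rat 6, Irf1, Gbp2, Gbp5, Oasl and Rsad2 were the highest of the group and Mx1, Mx2, Oas1a and Oas2 the lowest. These rats and genes were picked after their values were seen, so the pattern is a description of 3 rats.

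**Figure D4:**
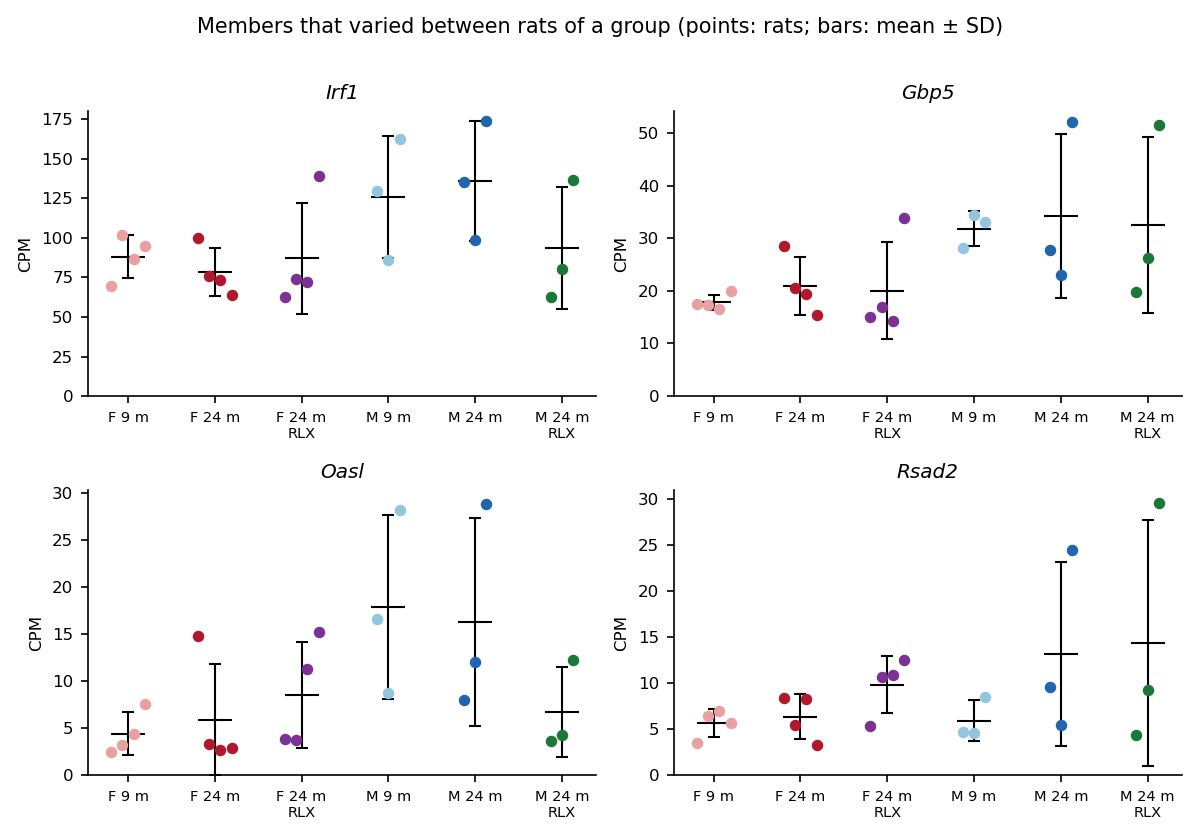
CPM of Irf1, Gbp5, Oasl and Rsad2 in each rat (points), with the mean and SD of each group (bars); F and M are females and males, 9 m and 24 m the age in months. In the aged control and RLX-treated males 1 rat stands above the others in all 4 genes, with Rsad2 at 24.4 and 29.5 CPM.

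The ligands themselves were hardly detected. Of 7 interferon genes listed in the tables, none had enough reads to be tested within a sex. Interferon gamma (Ifng) was at 0.218, 0.186, 0.181 and 0.212 CPM in young females, 1.94, 0.968, 0.108 and 2.003 CPM in aged controls and 0.0581, 0.156, 0.667 and 0.658 CPM with RLX. These values stood for 3 or 4, 2 to 32 and 1 to 10 reads, and aged control rat 5 was below the young rats. In males it was at 0.677, 1.89 and 0.667 CPM, 0.4601, 0.557 and 0.192 CPM and 0.595, 0.675 and 0.2404 CPM. Its female minus male difference in aging was 3.92 (SE 1.00, FDR 0.0467), a call that was kept in only 2 of 14 fits with 1 library left out (FDR from 0.0179 to 0.111). Interferon beta (Ifnb1) had from 0 to 15 reads, with the 15 in RLX-treated female rat 6. The receptor genes were expressed in every rat, Ifnar1 at 24.5 to 50.5 CPM, Ifnar2 at 7.07 to 16.2 CPM, Ifngr1 at 50 to 97.3 CPM and Ifngr2 at 21.9 to 53.8 CPM. None of these 4 receptor genes passed in any comparison.

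Lists around the set moved as follows in female aging, where 3.47% of all genes passed as higher. Of the genes upstream of interferon, 1 of 13 tested rose, the endosomal RNA receptor Tlr7, by a log2 fold change of 0.56 (SE 0.13, FDR 0.0338). Of the negative regulators 1 of 12 rose, the phosphatase Ptpn6, by 0.62 (SE 0.15, FDR 0.0388), and of the targets of interferon gamma 1 of 12, the Fc receptor Fcgr1a, by 1.01 (SE 0.18, FDR 0.0110). Antigen processing gave 2 of 12, the class I genes RT1-A2 at 0.41 (SE 0.09, FDR 0.0277) and RT1-CE5 at 0.42 (SE 0.10, FDR 0.0319), which belong to a family of near-identical copies and are uncertain. Further interferon-stimulated genes outside the set gave 4 of 45, among them Epsti1 at 0.94 (SE 0.18, FDR 0.0183), Lgals3bp at 0.47 (SE 0.11, FDR 0.0331) and Ifi27l2b at 0.88 (SE 0.21, FDR 0.0441). No gene of these lists passed as lower. Mavs at -0.39 (SE 0.10, FDR 0.0518) and Gbp1 at -0.29 (SE 0.10, FDR 0.101) were lower without overlap and did not pass. Of all genes 7.10% were lower without overlap. Each of the calls named here was lost without 9-month control female rat 4, as were those of Zbp1, Bst2, Mx1 and Gbp2.

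With RLX in females none of these lists held a gene that passed. In antigen processing all 12 genes had a log2 fold change below 0, with a median of -0.49, and 10 of the 12 reached an unadjusted p under 0.05, beside 7.81% of all genes lower. The peptide transporter Tap1 had the smallest p of the list, at -0.68 (SE 0.12, FDR 0.0698). Of the further interferon-stimulated genes 39 of 45 were below 0, with a median of -0.31, and 13 reached an unadjusted p under 0.05, with 0 above 0 at that level. In males with RLX the same list had 30 of 44 above 0 (51.3% of all genes) and a median of 0.14.

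Markers of cells that the tissue can hold were read in the same rats. In female aging 8 of 10 macrophage markers, 6 of 10 T cell markers, 3 of 10 natural killer and cytotoxic markers and 3 of 7 fibroblast markers rose, and 2 of 11 markers of ventricular cardiomyocytes fell. Of all genes tested 3.47% passed as higher and 1.88% as lower in that comparison. Summed macrophage markers ranged from 417 to 581 CPM in young females, from 824 to 1018.5 CPM in aged controls and from 482 to 848 CPM with RLX. Summed T cell markers were 58.6 to 76.0, 109.5 to 128 and 67.6 to 88.4 CPM in the same groups, so that aged controls lay above both other groups. Cd4 weighed most in the T cell sum of either sex, with up to 68.7 CPM in a rat, against at most 17.6 CPM for any other marker of that list. By staining, the paper found few T cells in any group. In males the macrophage sum was 692 to 927 CPM at 9 months, 616 to 727 CPM at 24 months and 576 to 802 CPM with RLX. The T cell sum in males was 76.1 to 122, 73.4 to 83.5 and 87.3 to 98.3 CPM in the same order. RLX-treated males thus lay above the aged control males in it. No macrophage, T cell, natural killer or fibroblast marker passed in the other 5 comparisons within a sex. In the interaction of sex and age 7 of 10 macrophage, 2 of 10 T cell and 4 of 7 fibroblast markers passed as higher in females, beside 1.84% of all genes higher and 1.18% lower. Fcgr1a is on the macrophage list and among the interferon gamma targets. None of these macrophage, T cell, natural killer and fibroblast markers was at 0 in all rats of a group. The defining markers of ventricular muscle were abundant in every rat, and their sums differed between groups. In females they were 38499 to 45620 CPM at 9 months, 30294 to 35355 CPM in aged controls and 39202 to 44141 CPM with RLX, so that aged controls lay below both other groups. In males they were 32217 to 44877 CPM at 9 months, 42878 to 44675 CPM in aged controls and 32762 to 38588 CPM with RLX. Summed fibroblast markers in females were 1987 to 2785 CPM at 9 months, 3510.3 to 4165 CPM in aged controls and 2283 to 2774 CPM with RLX, and aged controls lay above both other groups. The part of these cells in the changes of the members was not tested.

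**Figure D5:**
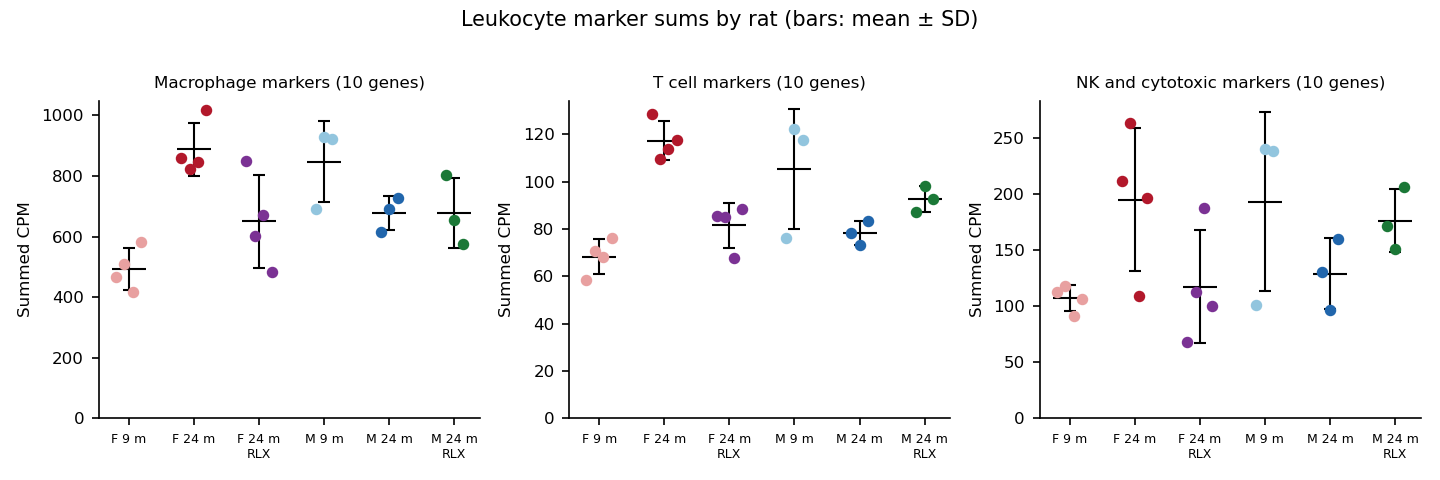
Summed CPM of 10 macrophage, 10 T cell and 10 natural killer and cytotoxic markers in each rat (points), with the mean and SD of each group (bars); F and M are females and males, 9 m and 24 m the age in months. Summed macrophage markers were 824 CPM or more in all aged control females and 581 CPM or less in all young females.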

How the data were processed

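Left ventricles of 21 rats were sequenced as stranded, paired-end total RNA after removal of ribosomal RNA. The authors mapped and counted reads in Biomedical Genomics Workbench and deposited, for each of 26597 genes, the count of reads and the RPKM (counts divided by transcript length and mapped reads) per rat in 4 tables. The sources used here do not name the genome build. Control columns shared between tables held identical values, and 56 deposited CPM and TPM columns were not used.

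Whole-number counts were fitted per comparison with edgeR 4.0.16 (filterByExpr, TMM factors, robust quasi-likelihood F test) in R 4.3.3, with Benjamini-Hochberg adjustment over all genes tested and a threshold of 0.05. Differences between the sexes were interaction terms. DESeq2 1.42.0, edgeR's exact test, limma 3.58.1 voom with quality weights, RLE factors, no filter on low counts, a fit of all groups of a sex, the rat number as a block and leaving out each library were alternatives. CPM used TMM factors over the 21 libraries, and log2 CPM a prior count of 2. Totals of 11997512 to 19027947 counts set the counting error of low genes. The tests of the 6 comparisons within a sex, not the interactions, were tested on simulated data.

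The members and lists were chosen with earlier results of these data known. Values in every rat are given for members that passed in any comparison or interaction by the quasi-likelihood test, for up to 4 with the smallest p per comparison, and for Stat2, Irf9, Irf7 and Irf1. Of the other lists up to 3 genes per list and comparison are named, with Ifng, Ifnb1 and the receptors. Nothing in the labels beyond rat numbers ties rats to litters or days.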

Additional observations from a re-analysis of the deposited data

Results flagged for a closer look

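Among the 60 groups of 4 rats examined for the 20 members with values in every rat, 2 held a rat far from the others, where the gap to the nearest rat divided by the range exceeded Dixon's 95% critical value, and chance gives about 1 in 20. Oasl in 24-month control female rat 2 was at 14.7 CPM, against a median of 2.88 CPM in the other rats of its group (gap over range 0.891). Ifi44 in 9-month control female rat 1 was at 27.8 CPM against a median of 29.6 CPM (gap over range 0.86), a small difference in a group that otherwise varied little.

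The change with age differed between the sexes by the interaction test in edgeR for Bst2, by 0.66 on the log2 scale (female minus male, FDR 0.0475). Among genes of the other lists the difference was 3.92 for Ifng (FDR 0.0467), 1.04 for Ptpn6 (0.0388) and -0.94 for Gbp1 (0.0175). The class I genes RT1-A2, RT1-CE5 and RT1-A1 differed by 1.32, 1.19 and 1.22 (FDR 0.0146, 0.0188 and 0.0234), Epsti1 by 1.74 (0.0275) and Shisa5 by 0.78 (0.0281). RT1-A2 kept its call in all 14 fits with 1 library left out. Calls were lost in 12 of the 14 for Ifng, 11 for Bst2, 9 for Ptpn6, 6 for Epsti1, 5 for Shisa5, 4 for RT1-A1, 2 for RT1-CE5 and 1 for Gbp1.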

How the results depend on the processing

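No result changed sign among those that had been called, and of 165 counts and medians recomputed under other tools and settings 112 stayed within 1.5 times or 1 SD. By DESeq2 the genes that passed were 1189 in female aging (679 by the quasi-likelihood test), 283 with RLX in females, 62 in male aging, 134 with RLX in males, 92 and 310 in RLX-treated aged against young females and males, and 878 and 385 in the sex differences in aging and RLX. Members by DESeq2 were 3 with RLX in females, 1 with RLX in males, 2 in RLX-treated aged against young males and 3 in the sex difference in aging. The exact test gave 169 genes and 1 member with RLX in females, 76 genes in male aging, 18 with RLX in males, 77 in RLX-treated aged against young females, and 340 genes and 2 members in males. By limma voom 65 genes passed in male aging, 135 and 1 member with RLX in males, 3 in RLX-treated aged against young females, 103 and 1 member in males, 1041 and 3 members in the sex difference in aging (median 0.37) and 242 in that of RLX (median -0.19). With no filter 20 genes passed in male aging, 36 for RLX in females and 62 in RLX-treated aged against young males, and 0 members in the sex difference in aging, where RLE factors gave 2. Fits of all groups of a sex gave 13 genes in male aging, 28 for RLX in females and 4 in RLX-treated aged against young males. By the rule with fold change and RPKM 352 genes and 2 members passed in female aging. Without the libraries high in blood or atrial genes, 191 genes passed in female aging (median of the members 0.40), 42 and 1 member with RLX in females (median -0.28) and 2 in RLX-treated aged against young females. For female aging and for RLX in females these fits kept only rats 2 and 4 of the aged controls. The cause of these differences was not tested.

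What equal rat numbers in different groups mark is not stated. Correlations of same-numbered rats ran from -0.162 to 0.439, over too few shared numbers to settle whether the samples were paired. With the rat number as a block, 0 genes and 0 members passed in female aging (median 0.0814), 18 genes with RLX in females, 247 in RLX-treated aged against young females, and 668 genes and 3 members in males. Such a fit rests on the numbers found in both groups, 4 and 5 in female aging and 2, 4 and 6 with RLX in females. Against young rats they were 1 and 4 in females and 2 and 3 in males. These fits left very little to estimate the spread between rats, so their counts are uncertain. No fit with this block was made for male aging, RLX in males and the interactions because the groups share fewer than 2 numbers or the term cannot be estimated.

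Leaving out each library in turn gave 121 to 617 genes and 0 to 5 members in female aging (median 0.10 to 0.28), 0 to 2 genes with RLX in females (median -0.24 to -0.08), 0 to 3 in male aging (median -0.22 to -0.01), 0 to 1 with RLX in males (median -0.0377 to 0.15), 1 to 4 and 0 to 49 in RLX-treated aged against young females (median 0.06 to 0.12) and males (median -0.20 to -0.02), 25 to 890 genes and 0 to 5 members in the sex difference in aging (median 0.15 to 0.38), and 0 to 221 genes in that of RLX (median -0.23 to 0.0173).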
